A study of Mus musculus with 16 samples.

Results

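The MHC class I presentation genes examined here were *B2m*, *H2-K1*, *H2-D1*, *Tap1*, *Tap2*, *Tapbp*, *Psmb8*, *Psmb9*, *Psmb10* and *Nlrc5*. They are 10 of the 45513 genes in the count files and were chosen by symbol for their place in the pathway. They were compared between Atoh1-labeled secretory cells and the other epithelial cells of crypt-enriched preparations of the mouse small intestine. Both fractions came from each of 8 adult Atoh1(WT)CreERT2 R26RtdTom mice of C57BL/6 background and both sexes, which per the methods of the study were homozygous for the Atoh1 allele and heterozygous for the reporter. In these mice a tamoxifen-inducible Cre is made from the *Atoh1* locus itself, and Cre switches on the red reporter tdTomato (tdTom). All 8 mice received tamoxifen, so neither fraction is from uninduced animals. The labels, and the treatment methods for the secretory signature, give 1 mg a day on 3 consecutive days, although the RNA sequencing section of the methods describes an injection on the day before collection. The tdTom+ libraries (tdTompositive in the labels, n = 8) hold EpCAM+tdTom+ live cells and the tdTom- libraries (tdTomnegative, n = 8) hold EpCAM+tdTom- live cells, where EpCAM is a surface protein of epithelia. The reporter marks cells in which the Atoh1 locus is or was active, and tdTom- is a mixture of the other EpCAM+ cells of these preparations. Per the methods of the study, they came from the proximal small intestine. Crypt-enriched fractions were combined before sorting and the villus-enriched fraction was left out, so neither fraction stands for the whole epithelium.

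MHC class I molecules carry peptides from a cell's own proteins to its surface, where CD8 T cells read them. A heavy chain (*H2-K1* and *H2-D1* in this strain) pairs with the light chain β2-microglobulin (*B2m*). The peptides are cut by the proteasome, whose catalytic subunits can be exchanged for the inducible subunits of the immunoproteasome (*Psmb8*, *Psmb9*, *Psmb10*). They are pumped into the endoplasmic reticulum by the transporter TAP (*Tap1* with *Tap2*) and loaded with the help of tapasin (*Tapbp*). *Nlrc5* encodes the transactivator of class I genes, and interferons raise the whole pathway. In the intestine, class I on epithelial cells is also seen by the intraepithelial lymphocytes that lie between them.

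Of the 10 genes, 7 lie on chromosome 17 (GRCm38), 2 on chromosome 8 (*Psmb10* and *Nlrc5*) and 1 on chromosome 2 (*B2m*). *Psmb9*, *Tap1*, *Psmb8* and *Tap2* follow each other on chromosome 17, from position 34181988, the lower bound of *Psmb9*, to 34216321, the upper bound of *Tap2*. *Tap1* and *Psmb9* are divergent genes on opposite strands and share bases 34187553 to 34187764. The span of *Tapbp* overlaps that of *Zbtb22* on the same strand (33915904 to 33919324), where reads of the 2 genes were not counted for both.

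Promoters of the classical class I genes carry a conserved module in which an X2 box, bound by CREB and ATF proteins, stands before a Y box, bound by NF-Y. NLRC5 acts through the proteins on this module. The 200 bases before the RefSeq start site (GRCm38.p6) are shown for *B2m*, *H2-K1* and *H2-D1*, because they hold both boxes at the same spacing, for *Tap1*, which holds an X2 match in this stretch but no Y match, and for the nonclassical gene *H2-T3*, which was reduced but holds neither. Capitals mark TGACG (X2), ATTGG or its complement CCAAT (Y), AANNGAAA or its complement (an interferon regulatory factor motif) and GGGANTCCC (an NF-κB motif), searched on both strands with overlaps allowed.
B2m, chr2:122147487-122147686, plus strand: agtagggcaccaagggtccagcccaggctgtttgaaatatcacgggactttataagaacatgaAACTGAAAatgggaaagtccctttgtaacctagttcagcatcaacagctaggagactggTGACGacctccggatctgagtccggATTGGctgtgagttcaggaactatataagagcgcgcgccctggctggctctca
H2-K1, chr17:34000334-34000533, minus strand: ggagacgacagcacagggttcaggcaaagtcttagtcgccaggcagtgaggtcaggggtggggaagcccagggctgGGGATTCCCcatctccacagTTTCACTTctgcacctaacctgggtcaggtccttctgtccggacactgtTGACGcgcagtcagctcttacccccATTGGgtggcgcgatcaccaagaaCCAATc
H2-D1, chr17:35262894-35263093, plus strand: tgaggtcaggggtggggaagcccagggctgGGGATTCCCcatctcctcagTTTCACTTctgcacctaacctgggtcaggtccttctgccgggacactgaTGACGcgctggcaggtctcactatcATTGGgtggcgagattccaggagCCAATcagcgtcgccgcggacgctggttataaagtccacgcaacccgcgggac
Tap1, chr17:34187356-34187555, plus strand: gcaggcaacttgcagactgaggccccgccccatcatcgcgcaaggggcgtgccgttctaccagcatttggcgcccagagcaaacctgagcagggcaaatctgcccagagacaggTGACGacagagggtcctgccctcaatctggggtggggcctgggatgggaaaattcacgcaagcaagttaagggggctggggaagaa
H2-T3, chr17:36190152-36190351, minus strand: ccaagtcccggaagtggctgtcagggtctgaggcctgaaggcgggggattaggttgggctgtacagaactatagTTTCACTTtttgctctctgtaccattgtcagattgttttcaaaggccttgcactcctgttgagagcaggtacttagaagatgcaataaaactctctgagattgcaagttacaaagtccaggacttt

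In *B2m*, *H2-K1* and *H2-D1* the first base of ATTGG lies 25 bases after the first base of TGACG, on the same strand. That spacing, read off these 3 genes, was found in 31 (0.094%) of 32851 RefSeq promoter windows of equal length, these 3 included. RefSeq promoter windows were matched for 8 of the 10 genes, all but *Tap2* and *Nlrc5*. Of these 8, 5 held TGACG together with ATTGG at any spacing (*B2m*, *H2-K1*, *H2-D1*, *Tap1* and *Psmb9*), and 7.7% of all windows did. For *Tap1* and *Psmb9* this is largely the same DNA, since their windows share 275 bases and their start sites lie 226 bases apart. The ATTGG match of *Tap1* lies 222 bases before its start, outside the stretch shown. AANNGAAA was found in 3 of the 8 (23.9% of all windows) and GGGANTCCC in 2 (0.8% of all windows), *H2-K1* and *H2-D1*. The stretches shown for *H2-K1* and *H2-D1* are nearly the same around their matches to AANNGAAA and GGGANTCCC. A match to these letters is a description of the sequence and was not tested as a binding site.

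Total counts ranged from 17116405 to 25323567 per library. *Atoh1* was higher in tdTom+ by 6.43 on the log2 scale, goblet and Paneth markers (4 of 4 each) were higher without overlap, and absorptive markers (4 of 4) were lower without overlap. *Epcam* stood at 941 ± 56.5 CPM (counts scaled to a common library total, TMM-normalised) in tdTom+ and 1018 ± 53.7 in tdTom- (SD, n = 8 each). The other epithelial markers differed without overlap. *Vil1* was lower in tdTom+ (log2 fold change -1.42), and *Cdh1* (0.47) and *Krt8* (0.52) were higher. Over all genes tested, 30.0% were lower and 25.8% higher (edgeR, adjusted p under 0.01), and the fractions did not overlap for 31.6%. Markers of immune cells were lower in tdTom+ for 8 of 11 tested of 14, with *Coro1a* (log2 fold change -1.91) and *Cd3e* (-1.64) the furthest. Their summed level was 7.06 to 33.0 CPM in tdTom+ and 13.1 to 172 CPM in tdTom-, where the libraries of mouse 7 (155) and mouse 8 (172) stood above the other 6 (13.1 to 45.9). The pan-leukocyte marker *Ptprc* had 0.751 to 5.34 CPM in tdTom+ and 2.81 to 12.2 CPM in tdTom-. The part of such cells in the class I values was not tested, but each count of class I genes was also made without mice 7 and 8.

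Most class I presentation genes were lower in tdTom+ cells. With the mouse as a block, 8 of the 10 genes were lower at an adjusted p under 0.01 (edgeR quasi-likelihood test, Benjamini-Hochberg over all genes tested) and 0 were higher. Over all 15323 genes tested, 55.8% differed, 30.0% lower and 25.8% higher. At an unadjusted p under 0.05, 9 were lower and 0 higher, and the share of all genes at that threshold is not given. DESeq2 and limma-voom each gave 8 lower and 0 higher. Over all genes, DESeq2 gave 4836 lower and 4406 higher of 21372, and limma-voom 4606 lower and 3934 higher of 15323. The median log2 fold change was -0.75 over the 10 genes and 0.02 over all genes tested. The 8 genes were lower in tdTom+ in all 8 mice, as were 27.4% of all genes tested. The fractions did not overlap for 2 of the 10, *B2m* and *Tap2*, and for 31.6% of all genes tested. Without mice 7 and 8, and likewise without mice 5 and 7, 8 were lower and 0 higher. In these sorted populations, fewer cells of a type and less RNA per cell cannot be told apart.

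**Figure D1:**
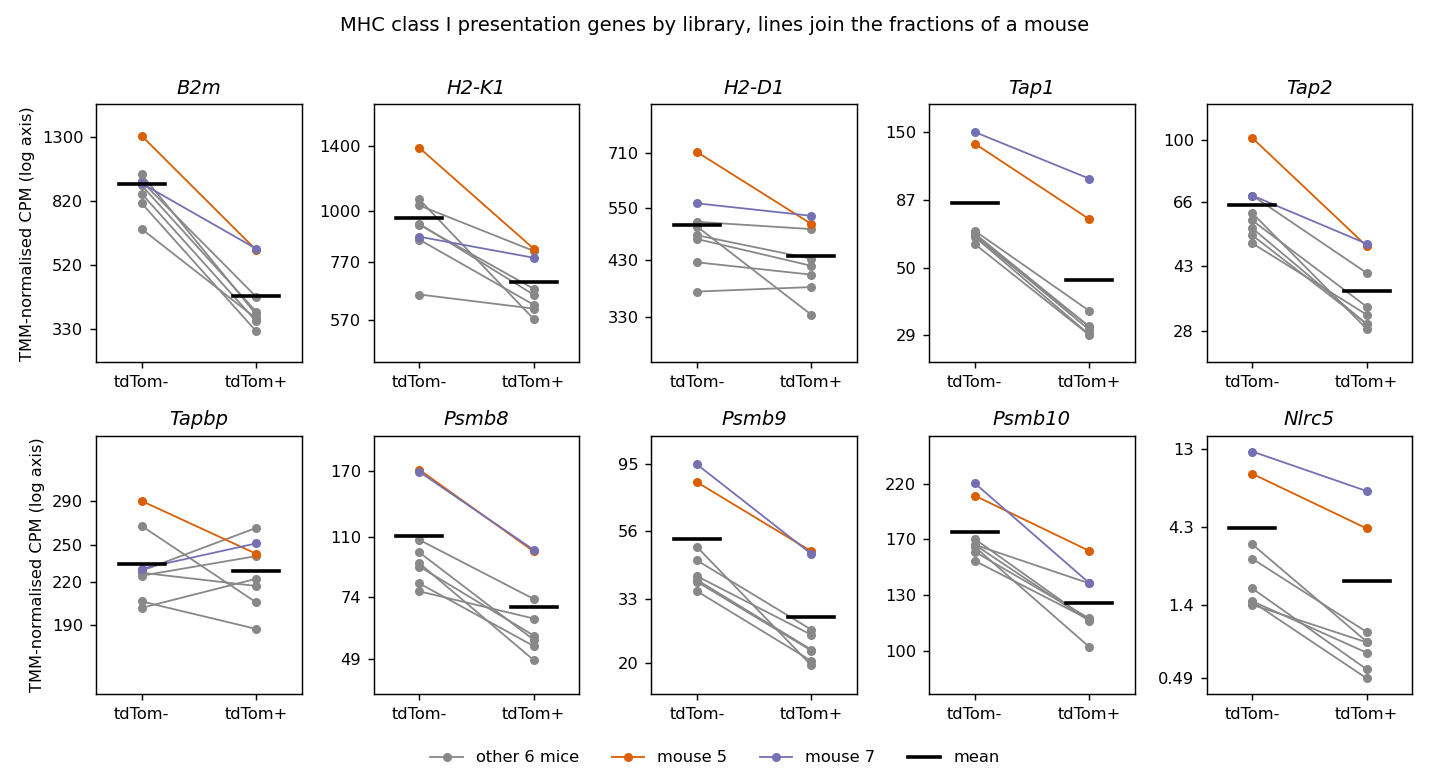
Expression of the 10 MHC class I presentation genes in each library, as TMM-normalised CPM on log axes that differ between panels. Points are libraries, lines join the tdTom- and tdTom+ libraries of a mouse, black bars are means (n = 8), and mice 5 and 7 are colored. Lines fall in all 8 mice for 8 genes, in 7 of 8 for *H2-D1* and in 4 of 8 for *Tapbp*.

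*B2m*, the light chain that every class I molecule needs, was lower without overlap. It ranged from 326 to 586 CPM (median 371) in tdTom+ and from 674 to 1308 CPM (median 926) in tdTom- libraries. Every tdTom+ library was below every tdTom- library. The log2 fold change was -1.16 ± 0.08 (SE, edgeR adjusted p = 3.33e-08), which left 44.7% of the tdTom- level. Within a mouse, tdTom+ held 37.0% to 62.9% of the tdTom- value.

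The classical heavy chains changed less than their partner. *H2-K1* ranged from 574 to 824 CPM (median 660) in tdTom+ and from 651 to 1384 CPM (median 934) in tdTom- libraries. The fractions overlapped, but tdTom+ was lower in all 8 mice (log2 fold change -0.46 ± 0.09, edgeR adjusted p = 0.000368). *H2-D1* ranged from 333 to 530 CPM (median 426) in tdTom+ and from 371 to 714 CPM (median 493) in tdTom-. It was lower in 7 of 8 mice and did not pass the threshold (log2 fold change -0.20 ± 0.08, edgeR adjusted p = 0.0325). With libraries scaled by total counts alone its log2 fold change was -0.27 and passed (edgeR adjusted p = 0.00698), and with at least 10 counts in every library it was -0.08 (edgeR adjusted p = 0.348). Without mouse 3 it was -0.12 (edgeR adjusted p = 0.244). In these last 2 fits the median of all genes stood at 0.12, and relative to it *H2-D1* was at -0.20 and -0.24. The lowest tdTom- value of *B2m*, *H2-K1* and *H2-D1* was that of mouse 8, whose tdTom- library had the highest sum of immune markers (172 CPM). The next highest sum was that of mouse 7 (155 CPM). Its tdTom- library held 933, 876 and 561 CPM of these genes, within the range of the other mice. The part of immune cells in these values was not tested. Heavy chain genes are alike in sequence, and a read that maps to several of them is counted once, at its primary alignment, so the split of reads between them is uncertain.

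To set that split aside, counts of *H2-K1*, *H2-D1* and all *H2-Q*, *H2-T* and *H2-M* genes (29 genes) were summed to 1 feature. The sum averaged 1748 ± 229 CPM in tdTom+ against 2854 ± 551 CPM in tdTom- (SD, n = 8 each). Its log2 fold change of -0.70 ± 0.09 passed the threshold (edgeR adjusted p = 1.01e-05). The makeup of this sum differed between the fractions. *H2-Q* genes supplied 33.4% ± 2.41 of heavy chain counts in tdTom- and 15.1% ± 1.63 in tdTom+. The classical genes took a larger share in tdTom+, 39.6% ± 0.903 against 33.7% ± 1.36 for *H2-K1* and 25% ± 1.55 against 17.8% ± 2.25 for *H2-D1* (SD, n = 8 each). *H2-T* genes supplied 20.1% ± 1.92 in tdTom+ and 15.0% ± 1.11 in tdTom-. The *H2-Q* and *H2-K1* shares did not overlap between the fractions, while those of *H2-D1* and *H2-T* did, and no test was made of the shares.

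**Figure D2:**
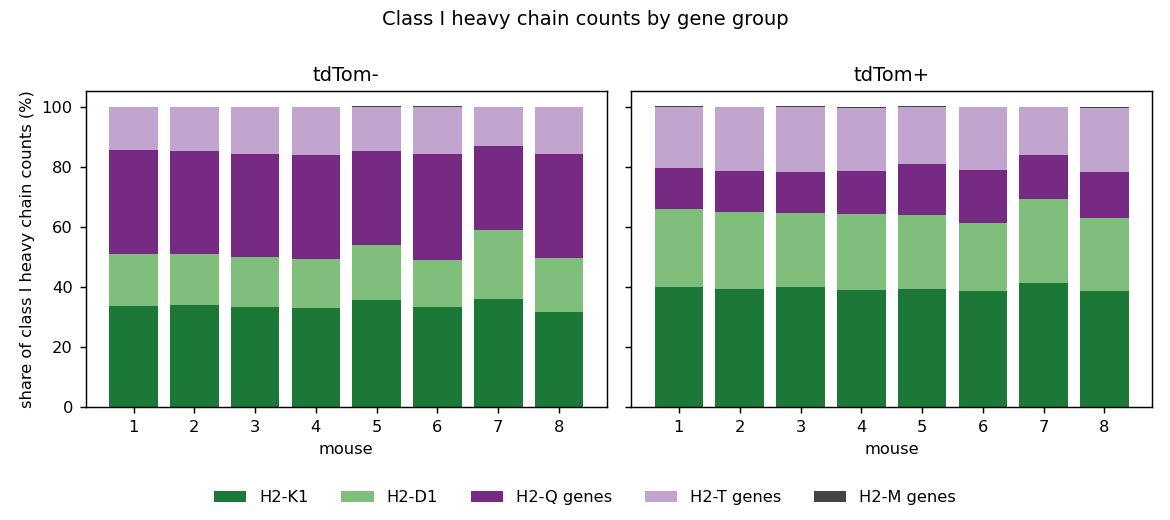
Share of class I heavy chain counts (%) that each gene group supplied, for each mouse, in tdTom- (left) and tdTom+ (right) libraries. Each stacked bar is 1 library, and the *H2-Q* segment is 28.2% to 35.3% in tdTom- and 13.4% to 17.8% in tdTom+.

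The nonclassical and class I-like genes moved in both directions. Of 14 tested of 17, 8 were lower and 5 higher in tdTom+, against 30.0% and 25.8% of all genes tested. *H2-T3*, which encodes the thymus leukemia antigen of intestinal epithelium, a ligand of CD8αα, ranged from 31.9 to 65.5 CPM (median 38.0) in tdTom+ and from 142 to 286 CPM (median 218) in tdTom-. All tdTom+ libraries were below all tdTom- libraries (log2 fold change -2.40 ± 0.09, edgeR adjusted p = 6.23e-11). *H2-Q1* (-2.33) and *H2-Q2* (-2.23) fell by a like amount, as did *Fcgrt* (-2.05), the heavy chain of the neonatal Fc receptor that also pairs with β2-microglobulin. *H2-T23*, which encodes Qa-1, the ligand of CD94/NKG2A receptors, was higher, at 180 to 299 CPM (median 224) in tdTom+ against 104 to 219 CPM (median 145) in tdTom-. Its log2 fold change was 0.58 ± 0.10 (edgeR adjusted p = 0.000206), and it was higher in all 8 mice although the fractions overlapped. *Cd1d1*, which presents lipids, was higher by 1.60 from a low level (0.470 ± 0.296 CPM in tdTom-, SD, n = 8) and *H2-M3*, which presents formylated peptides, by 1.41 on the log2 scale. *H2-T22* (0.60) and *H2-T10* (0.59) were the other genes that rose. In the matched promoters of this list (12 of 17), 5 held TGACG with ATTGG and 11 held AANNGAAA, against 7.7% and 23.9% of all windows. Heavy chain genes are alike in sequence, so these matches need not be independent.

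The inducible proteasome subunits were all lower in tdTom+ cells. *Psmb8* (β5i) ranged from 48.7 to 101 CPM (median 60.6) in tdTom+ and from 76.6 to 171 CPM (median 95.6) in tdTom-. The ranges overlapped, with the tdTom+ libraries of mice 5 and 7 inside the tdTom- range, and *Psmb8* was lower in all 8 mice (log2 fold change -0.67 ± 0.07, edgeR adjusted p = 1.16e-06). *Psmb9* (β1i) had medians of 23.5 CPM in tdTom+ (19.6 to 47.8) and 42.0 CPM in tdTom- (35.0 to 94.5), a log2 fold change of -0.87 ± 0.07 (edgeR adjusted p = 1.15e-07). *Psmb10* (β2i) changed least of the 3, with medians of 116 CPM in tdTom+ (102 to 161) and 165 CPM in tdTom- (153 to 221) and a log2 fold change of -0.49 ± 0.06 (edgeR adjusted p = 5.07e-06). Both were lower in all 8 mice, and their fractions overlapped.

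Each inducible subunit takes the place of a constitutive subunit, so their ratio was formed within each library from counts per exon length, which removes the scaling of libraries. *Psmb8* to *Psmb5* was 0.490 ± 0.154 in tdTom+ and 0.824 ± 0.237 in tdTom- (SD, n = 8 each). *Psmb9* to *Psmb6* was 0.192 ± 0.0674 in tdTom+ and 0.294 ± 0.107 in tdTom-. *Psmb10* to *Psmb7* was 2.03 ± 0.299 in tdTom+ and 2.66 ± 0.342 in tdTom-. All 3 ratios were lower in tdTom+ in 8 of 8 mice, by log2 differences of -0.76, -0.61 and -0.40 with SDs over mice of 0.23, 0.18 and 0.17. An exact sign-flip test (two-sided) across the 8 mice gave p = 0.00781 for each, the smallest it can give, and 0.00781 after Benjamini-Hochberg adjustment over the 3. With the median of the 14 constitutive core genes as denominator, the differences of *Psmb8* and *Psmb10* shrank to -0.43 and -0.25 (exact sign-flip test, adjusted p = 0.0156 and 0.0117). These ratios are of transcripts and not of assembled proteasomes.

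**Figure D3:**
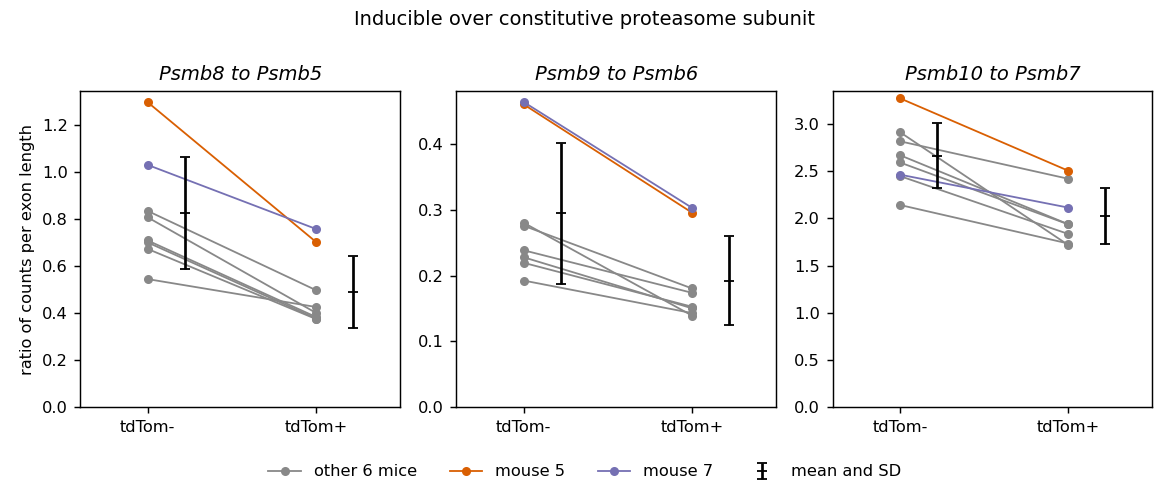
Ratio of each inducible proteasome subunit to the constitutive subunit it replaces, from counts per exon length on linear axes that start at 0. Points are libraries, lines join the fractions of a mouse, black marks are the mean and SD (n = 8), and every line falls from tdTom- to tdTom+.

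Of the 14 genes of the constitutive core, 10 were lower and 0 higher (edgeR, and 10 and 0 both with DESeq2 and at an unadjusted p under 0.05), with a median log2 fold change of -0.27. Over all genes tested at the adjusted threshold, 30.0% were lower and 25.8% higher. The difference from the inducible subunits was tested only as the ratios above, and *Psma4* fell slightly more than *Psmb10* did. *Psma4* (-0.51) and *Psma5* (-0.37) fell most. Of the subunits that are replaced, *Psmb6* fell by 0.26, while *Psmb5* (log2 fold change 0.09 ± 0.06) and *Psmb7* (-0.09 ± 0.07) did not pass the threshold. Without mouse 3, 3 of the 14 were lower, and without mice 7 and 8, 6 were. Among activators and assembly factors, 3 of 9 were lower and 2 higher, shares near those of all genes tested (30.0% and 25.8%). The lower genes were both chains of the interferon-inducible 11S activator, *Psme2* (-0.87 ± 0.05, edgeR adjusted p = 3.9e-09) and *Psme1* (-0.44 ± 0.05, edgeR adjusted p = 7.03e-06), and *Pomp* (-0.66), the maturation factor of new core particles. *Psme2* ranged from 106 to 163 CPM in tdTom+ and from 196 to 283 CPM in tdTom- without overlap. *Psmg3* (0.57) and *Psme4* (0.22) were higher, and *Psme4* did not pass without the replicate block (edgeR adjusted p = 0.0104).

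Both chains of the peptide transporter were lower in tdTom+ cells. *Tap1* ranged from 29.1 to 103 CPM (median 31.2) in tdTom+ and from 60.8 to 151 CPM (median 66.0) in tdTom-. The 2 tdTom+ libraries that lay inside the tdTom- range were those of mice 5 and 7. Its log2 fold change was -0.97 ± 0.07 (edgeR adjusted p = 2.08e-08), and within a mouse tdTom+ held 45.4% to 68.6% of the tdTom- level. In the fit without the replicate block it was at -0.89 ± 0.30 and did not pass (edgeR adjusted p = 0.0165). *Tap2* ranged from 28.4 to 49.99 CPM (median 32.0) in tdTom+ and from 50.2 to 101 CPM (median 59.8) in tdTom-, with the highest tdTom+ library just below the lowest tdTom- library (50.15 CPM). Its log2 fold change was -0.83 ± 0.07 (edgeR adjusted p = 1.34e-07).

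*Tapbp*, whose product bridges TAP and the empty heavy chain, stood apart from TAP. It ranged from 187 to 265 CPM (median 231) in tdTom+ and from 201 to 290.4 CPM (median 228) in tdTom-. It was lower in 4 mice and higher in 4 (log2 fold change -0.03 ± 0.07, edgeR adjusted p = 0.703). Its sign turned positive under 3 alternatives, and no alternative passed the threshold. The related *Tapbpl* also did not pass (-0.04 ± 0.05).

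Of 8 genes for peptide loading and trimming, 4 were higher and 2 lower in tdTom+ cells, against 25.8% and 30.0% of all genes tested. *Tapbpl* and *Ganab* (-0.05 ± 0.05) did not pass. *Pdia3* (ERp57) rose from 455 ± 59.0 to 782 ± 77.2 CPM (SD, n = 8 each, log2 fold change 0.78 ± 0.06, edgeR adjusted p = 5.06e-08). *Calr* (calreticulin) rose from 633 ± 60.5 to 892 ± 107 CPM (0.49 ± 0.06, edgeR adjusted p = 4.17e-06). *Uggt1* (0.74) and *Hspa5* (0.67), which also serve all glycoprotein folding, were the other 2. *Erap1*, the aminopeptidase that trims peptides for class I, was lower by a log2 fold change of -0.35 ± 0.05 (edgeR adjusted p = 6.05e-05). *Canx* (calnexin) was lower by -0.20 and did not pass without the replicate block (edgeR adjusted p = 0.0356).

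*Nlrc5* was the least expressed of the 10 genes, with 8 to 277 counts per library. It ranged from 0.489 to 7.16 CPM (median 0.823) in tdTom+ and from 1.403 to 12.6 CPM (median 2.24) in tdTom-. The fractions overlapped widely, because the tdTom+ libraries of mice 5 and 7 exceeded the tdTom- libraries of the other 6 mice. Within each of the 8 mice it was lower in tdTom+, at 24.8% to 58.3% of the tdTom- level (log2 fold change -1.23 ± 0.15, edgeR adjusted p = 6.15e-06). In the unpaired fit, without the replicate block, it was at -1.10 ± 0.63 and did not pass (edgeR adjusted p = 0.145).

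Of 15 class I regulators, 7 were lower and 2 higher, against 30.0% and 25.8% of all genes tested. Without the replicate block, and likewise without mouse 3, 5 were lower. *Irf1*, an interferon-induced activator of class I promoters, ranged from 112 to 164 CPM in tdTom+ and from 127 to 214 CPM in tdTom- (log2 fold change -0.40 ± 0.06, edgeR adjusted p = 4.96e-05). *Irf9* (-0.89) and *Nfyc* (-0.53) fell most. The NF-Y subunits went separate ways, with *Nfyb* higher (0.89), *Nfyc* lower and *Nfya* not past the threshold (-0.07). *Rela* was also higher (0.30). *Rfx5*, the X-box factor, did not pass (0.19 ± 0.10). Without mice 5 and 7, 4 regulators were higher.

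Of 11 interferon receptor and signaling genes, 8 were lower and 0 higher (edgeR, and 8 and 0 with DESeq2), and at an unadjusted p under 0.05 there were 8 and 1. Over all genes tested at the adjusted threshold, 30.0% were lower and 25.8% higher. The receptor of type III interferon, *Ifnlr1*, averaged 11.7 ± 2.35 CPM in tdTom+ against 29.5 ± 10.3 CPM in tdTom- (SD, n = 8 each, log2 fold change -1.27 ± 0.12, edgeR adjusted p = 3.68e-07). *Ifngr2*, the signaling chain of the interferon-γ receptor, was lower by -0.95 ± 0.05 (edgeR adjusted p = 3.08e-09), whereas its partner *Ifngr1* did not pass (0.18 ± 0.06, edgeR adjusted p = 0.0251). *Socs1*, a feedback inhibitor, did not pass either (-0.25 ± 0.19). With mouse 3 left out, with mouse 7 left out or without mice 5 and 7, 1 gene of this list was higher. Without mouse 3, 6 were lower.

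**Figure D4:**
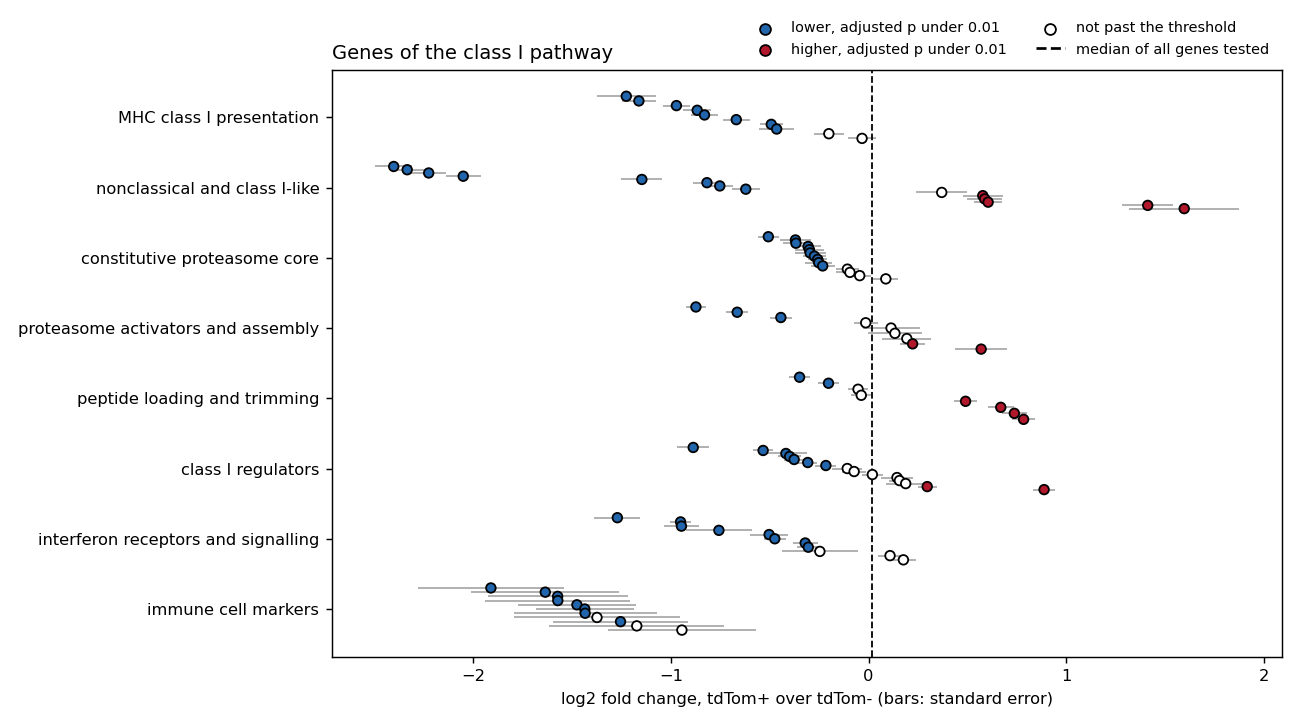
Log2 fold change of tdTom+ over tdTom- for each tested gene of the class I lists and the immune cell markers, with standard errors. Filled points passed an adjusted p of 0.01 and open points did not, and the dashed line is the median of all genes tested (0.02). The class I presentation genes lie at or below the line, while nonclassical genes and loading factors spread to both sides.

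Levels of different genes were compared per kilobase of exon. In both fractions the order was *B2m*, *H2-K1*, *H2-D1*, *Psmb10*, *Tapbp*, *Psmb8*, *Tap2*, *Tap1*, *Psmb9* and *Nlrc5*. In tdTom- libraries *B2m* had 1083 ± 211 and *H2-K1* 371 ± 80.4 CPM per kilobase, and in tdTom+ libraries they had 488 ± 121 and 266 ± 38.5 (SD, n = 8 each). *Tap2*, *Tap1* and *Psmb9* could not be ranked by their spread, at 9.63 ± 2.40, 8.32 ± 5.09 and 7.84 ± 3.20 CPM per kilobase in tdTom+ and 17.1 ± 4.30, 15.5 ± 6.71 and 14.4 ± 6.22 in tdTom-. *Nlrc5* was far below, at 0.257 ± 0.318 and 0.555 ± 0.557. The ranges of *Psmb10* and *Tapbp* overlapped in tdTom+, and those of *H2-K1* and *H2-D1*, *H2-D1* and *Psmb10*, and *Tapbp* and *Psmb8* overlapped in tdTom-, although in each of these pairs the first gene was higher in all 8 libraries.

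The mice differed among themselves in the same genes. In both fractions, mice 5 and 7 were the 2 highest of the 8 for 7 of the 10 genes (*H2-D1*, *Tap1*, *Tap2*, *Psmb8*, *Psmb9*, *Psmb10* and *Nlrc5*), which was the case for 105 (0.685%) of the 15323 genes tested. These mice were picked out after their values were seen, so the share is a description. For 2 of the 7 genes it rests on near ties, with mouse 7 at 68.92 and the next mouse at 68.89 CPM for *Tap2* in tdTom- cells, and at 138 and 137.7 CPM for *Psmb10* in tdTom+ cells. *Tap1* and *Nlrc5* were widely separated. In tdTom+ cells *Tap1* was at 74.5 and 103 CPM in mice 5 and 7 and at 29.1 to 35.4 CPM in the other 6. In tdTom- cells *Tap1* was at 137 and 151 CPM against 60.8 to 67.7 CPM. *Nlrc5* was at 9.17 and 12.6 CPM in the tdTom- libraries of these mice and at 1.403 to 3.34 CPM in the others, and at 4.19 and 7.16 CPM against 0.489 to 0.950 CPM in tdTom+. *H2-K1* and *Tapbp* did not separate the mice this way, and *B2m* did so in tdTom+ only (581 and 586 CPM against 326 to 417). Immune markers were highest in the tdTom- libraries of mice 7 and 8. Their part in the values of mice 5 and 7 was not tested. Their summed level was 28.6 CPM in the tdTom- library of mouse 5, within the range of the other mice, and 155 CPM in that of mouse 7. In tdTom+ it was 13.7 and 11.6 CPM in mice 5 and 7 and 7.06 to 33.0 CPM over all mice. The labels give no litter, cage, sex or date per mouse, so none of these could be compared.

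**Figure D5:**
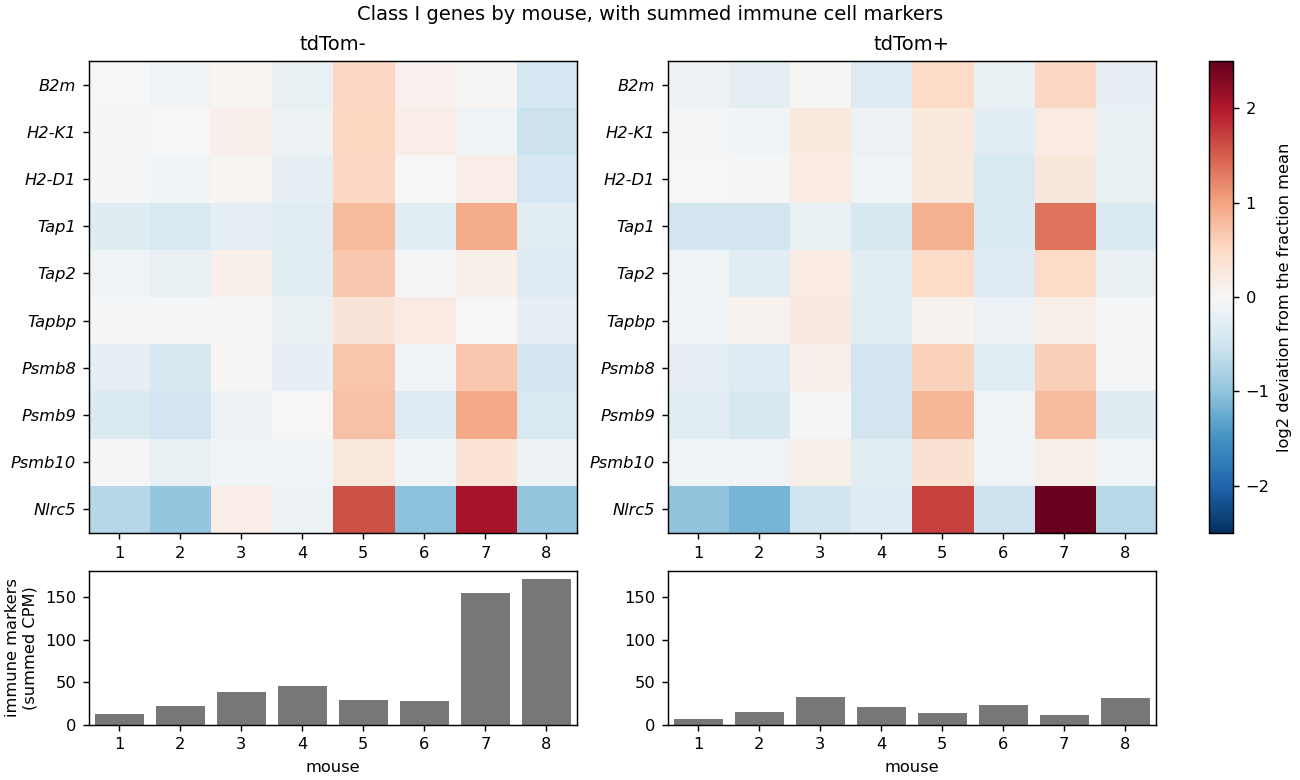
Log2 deviation of each gene from its mean in the fraction (color, top) and summed CPM of 14 immune cell markers (bars, bottom) for each mouse, in tdTom- (left) and tdTom+ (right) libraries. Columns 5 and 7 are reddest for *Nlrc5*, *Tap1*, *Psmb9* and *Psmb8* in both fractions. Column 7 of tdTom- is near white for *B2m*, *H2-K1* and *Tapbp*. The marker sum is highest in the tdTom- libraries of mice 7 and 8.

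Genes with the most similar pattern were sought among 8908 genes of at least 10 CPM, by the root mean square difference of centered log2 CPM over the 16 libraries. Nearest to the mean profile of *B2m*, *H2-K1* and *H2-D1* were *H2-Q4* (0.150), *Parp10* (0.150), *Irf1* (0.151), *H2-Q5* (0.157) and *Tmem170* (0.163). *H2-Q4* and *H2-Q5* are heavy chain genes, and reads can be misplaced between them and *H2-K1* or *H2-D1*. The part of such reads in their similarity was not tested. Nearest to *Nlrc5* were *Igtp* (0.352), *H2-DMa* (0.419), *H2-Ab1* (0.456), *Irgm2* (0.597) and *Ifi47* (0.776). *Igtp*, *Irgm2* and *Ifi47* are interferon-γ-induced GTPases, and *H2-Ab1* and *H2-DMa* belong to the class II pathway. *Igtp* had a log2 fold change of -1.41, *H2-DMa* one of -1.52 and *H2-Ab1* one of -0.996. *Irgm2* (-0.59) and *Ifi47* (-0.61) fell less than *Nlrc5* (-1.23).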

How the data were processed

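RNA of 16 libraries was sequenced by the authors from TruSeq Stranded mRNA libraries as single-end reads. Per the submitters' processing notes, TopHat2 2.1.1, Subread 1.5.2 and DESeq2 1.14.1 were used with GRCm38. The deposited values are raw counts for each Ensembl gene, made by the authors with featureCounts, version 1.5.0-p1 per the file headers, on the reverse strand, from primary alignments only. Multi-mapping reads therefore count once and can be misplaced between similar heavy chain genes.

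Groups came from the group label and mouse numbers from the title. The series design takes both fractions from each of 8 mice. Same-numbered libraries deviated together (mean correlation across genes 0.426, range 0.245 to 0.634, against -0.0569 for different numbers). Counts were fitted with edgeR 4.0.16 in R 4.3.3 (filterByExpr, TMM, quasi-likelihood test, mouse as block, Benjamini-Hochberg over 15323 genes, threshold 0.01). Values are TMM-normalised CPM. Standard errors are the log2 fold change divided by the square root of F. Ratios were tested by exact two-sided sign-flip tests with a threshold of 0.05. The fit was also run on simulated data in which few genes changed, equally in both directions. That setting differs from these data, so the run does not test the scaling of libraries here.

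Gene symbols were matched for 44585 of the identifiers, and 928 had none. Promoters are those of RefSeq. Alternatives were an unpaired fit, other scalings and filters, DESeq2 1.42.0, limma-voom (limma 3.58.1), other thresholds, thinning, summed heavy chains, other ratio forms and leaving out mice. Leaving out mice 5 and 7 or mice 7 and 8 was chosen after seeing the data. The genes and lists were chosen with earlier results of these data known. Named were the 10 genes, fixed picks of each list, up to 2 genes that rose and 2 that fell most in each list, and the 5 nearest patterns. *H2-Q2*, *Fcgrt*, *H2-T10*, *H2-T22*, *Hspa5*, *Ganab*, *Nfya*, *Vil1*, *Cdh1* and *Krt8* were named after their values were seen. A gene among the fixed picks is not reported here. The authors' own comparisons were not used.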

Additional observations from a re-analysis of the deposited data

Results flagged for a closer look

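In tdTom- cells, *Tap2* of mouse 5 stood apart from the other 7 mice, at 101 CPM against 50.2 to 68.9 CPM. On the log2 scale the gap to its nearest neighbor was 0.546 of the whole range, above the 95% critical value for 8 samples. It was the 1 set of 8 values to pass among the 26 examined, where chance gives about 1 in 20.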

How the results depend on the processing

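Of the 10 genes, 8 were lower in tdTom+ with DESeq2 size factors, TMM without the 10 most counted genes, no filter, DESeq2, limma-voom, thinning to the smallest total and each mouse left out. There were 6 without the replicate block, 9 with total counts or an adjusted p under 0.05, and 7 with at least 10 counts in every library, where *Nlrc5* was not tested. A log2 fold change of at least 1 left 2. Over all genes tested, 4133 of 15323 were lower without the replicate block and 4973 of 15323 with total counts. With at least 10 counts in every library, 3356 of 13239 were lower. Under the unpaired fit, *Tap1* (-0.89, adjusted p = 0.0165, edgeR) and *Nlrc5* (-1.10, adjusted p = 0.145, edgeR) were the 2 lost. *H2-D1* (-0.20) passed with total counts (-0.27), and was at -0.08 with at least 10 counts and -0.12 without mouse 3. The sum of 29 heavy chain genes, in which *H2-D1* is not tested by itself, was at -0.70. *Tapbp* turned positive with at least 10 counts (0.0863), without mouse 3 (0.0379) and without mouse 6 (0.0169), and ranged from -0.0569 to 0.0379 when each mouse was left out. With at least 10 counts, and without mouse 3, the median of all genes moved from 0.02 to 0.12 and the lower share of calls from 53.8% to 43.0% and 44.5%. Relative to that median *Tapbp* was at -0.04 and -0.08, *H2-D1* at -0.20 and -0.24 and *B2m* at -1.17 and -1.18. The cause was not tested.

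Among the lists, lower genes of loading and trimming went from 2 to 1 without the replicate block, without mice 5 and 7 and without mice 7 and 8, and ranged from 1 to 2 when each mouse was left out (1 without mouse 1, 2, 3, 5 or 7). Higher activators and assembly factors went from 2 to 1 without the replicate block, with total counts and without mice 7 and 8, and ranged from 1 to 2 when each mouse was left out (1 without mouse 1, 2, 4 or 8). The lower constitutive core genes ranged from 3 to 10 when each mouse was left out, with 3 without mouse 3, and were 6 without mice 7 and 8. Higher regulators were 4 and higher interferon receptor genes 1 without mice 5 and 7, and the latter ranged from 0 to 1 when each mouse was left out (1 without mouse 3 or 7). Lower interferon receptor genes were 6 without mouse 3. The 3 proteasome ratios kept their direction and side of the threshold under all 14 alternatives each, but with the core median as denominator those of *Psmb8* and *Psmb10* shrank from -0.76 to -0.43 and from -0.40 to -0.25. Without the pairing of replicates, exact permutation gave adjusted p = 0.00443, 0.0224 and 0.00443. Counts limit *Nlrc5* most (8 to 277), and intervals from counts cover counting error only.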
